A study of Homo sapiens with 4 samples.

Results

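Circles with alternative internal isoforms are circular RNAs whose back splice, the junction that closes the circle, is listed with more than one exon structure inside it. They were chosen from the deposited table as exon circles off the mitochondrial chromosome with 1 named host gene, at least 1 count over the 4 libraries and 2 or more listed isoforms. Of 91556 exon circles that met the other criteria, 12179 (13.3%) carried 2 or more isoforms, and 79377 carried 1. All circle types together made 190152 circles with at least 1 count. The chosen circles held 472790 of the 1161344 counts of the eligible exon circles (40.7%) and came from 3322 of their 7039 host genes (47.2%).

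The libraries were made from MDA-MB-468, a human breast cancer cell line, after it had been selected for radiation resistance with a total dose of 50 Gy given in fractions. All groups therefore carry that irradiation history. The control group had 2 biological replicates with a control hairpin (shCtrl) and the knockdown group had 2 with a stable hairpin against HNRNPL (shHNRNPL-1 in the protocol), so the knockdown rests on 1 hairpin and 1 cell line. HNRNPL is a nuclear RNA-binding protein that regulates splicing, and the design asks which circular RNAs depend on it. Circles were sequenced with Induro-mediated circular RNA sequencing on a nanopore instrument, in which a reverse transcriptase runs around the circle and the copies are amplified. A long read can cover a whole circle, which is how a caller can list the exons inside it.

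Circular RNA forms when a downstream 5' splice site is joined to an upstream 3' splice site. The pre-mRNA between these sites is spliced as usual or in part, so circles with the same back splice can differ inside. An exon can be left out, an intron can stay in, or an exon can begin or end at another splice site. Circles that keep an intron are known as exon-intron circles and are often nuclear, while circles of exons alone are mostly found in the cytoplasm.

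Total counts lay between 282737 and 556578 per library. Circles of EGFR, CDH1, EPCAM and CD44, chosen as markers of epithelium or of the line, were seen. CD44 had 71 to 86 counts per library, EPCAM 8 to 13 and CDH1 2 to 12, while KRT5, KRT7 and KRT18 had none. Circles of fibroblast, immune and endothelial marker genes (10 genes) were at 0 counts in every library, which for circular RNA is no measure of the linear transcript. No row examined here named HNRNPL. EGFR circles had 48 counts in control replicate 1 and 5, 3 and 2 in the other libraries. Control replicate 1 also stood apart in the share of its counts that came from the circles described here, as given below. P-values here measure the spread between 2 replicates per group.

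The deposited table gives 1 count per circle and library and no count per isoform. A change in the count of a circle therefore cannot be assigned to one of its isoforms. How the isoform list was made is not given in the sources used here. Of the circles, 872 had fewer counts than listed isoforms, and 803 of these had 1 count. In every listed circle the isoforms shared their outer ends and differed inside.

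Most of these circles listed a pair of isoforms. There were 10095 circles with 2 (82.9%), 1637 with 3 and 447 with 4 or more, up to 10. Isoforms of a circle differed in length by a median of 1388 nt between the longest and the shortest (quartiles 749 and 2331 nt), which exceeds the median length of the first-listed isoform, 1211 nt. The first-listed isoform was the shortest in 50.6% of circles and the longest in 44.3%. Circles of long non-coding RNA genes were 239 of the 12179 (1.96%), against 1.15% among circles with 1 listed isoform.

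The number of listed isoforms followed the count of the circle. Among circles with 1 count 6.43% carried more than one isoform, among those with 10 to 19 counts 25.5%, and among those with 100 counts or more 55.5%. The mean number of isoforms of such circles went from 2.03 to 2.59 over the same range. Median counts were 7 in circles with alternative isoforms and 3 in circles with 1 isoform. The share in any set of circles must therefore be read beside its counts.

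**Figure D1:**
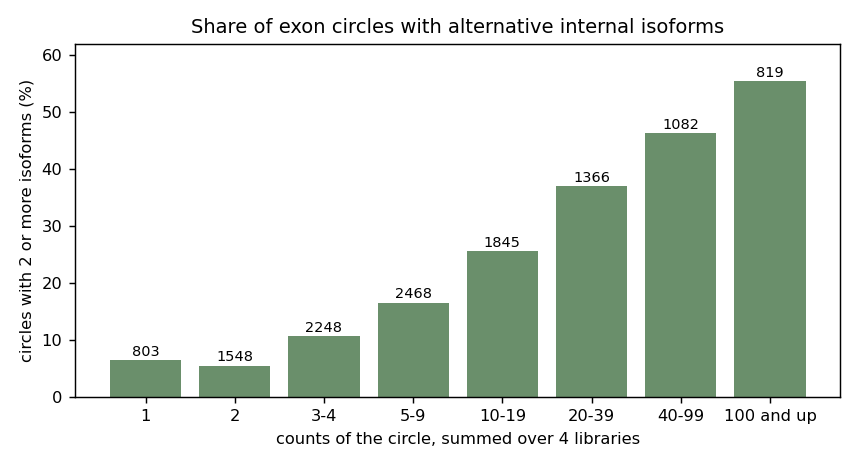
Bars show the share of exon circles with 1 named gene (percent, axis from 0) that list 2 or more isoforms, by the count of the circle summed over the 4 libraries, with the number of such circles above each bar. The share lay at 6.43% for 803 circles with 1 count and reached 55.5% for circles with 100 counts or more.

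The share also differed with the number of exons within a band of similar counts. Among circles with 10 to 39 counts, 16.6% of those whose first-listed isoform had 1 exon carried alternatives, 38.0% of those with 2 exons and 42.0% of those with 3. The share then declined to 33.4% at 4 to 5 exons, 30.0% at 6 to 8, 26.7% at 9 to 11 and 24.2% at 12 or more. Circles with 1 exon made 5.86% of the circles with alternatives and 18.5% of those with 1 isoform. The median number of exons was 6 in both sets.

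The back splices themselves differed with depth. A plain AG-GT motif, the usual pair of acceptor and donor dinucleotides on either side of a back splice, was given for 84.4% of circles with alternatives and for 52.2% of those with 1 isoform. At 10 to 19 counts the shares were 85.5% and 75.3%, and at 40 to 99 counts they were 86.9% and 85.9%. Most of the gap was therefore absent among circles of similar high counts.

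Each row also gives the short stretch that both sides of a back splice share, which leaves the exact junction open by that many bases. These stretches are shown because they hold letters of the splice sites: AG commonly ends both an exon before its donor site and an intron before its acceptor site. The most frequent among circles with alternatives were as follows, in capitals as deposited.
AG: 24.5% of circles with alternatives and 17% of circles with 1 isoform.
G: 17% and 18.0%.
AGG: 10.7% and 7.50%.
GG: 5.41% and 3.90%.
AGGT: 5.15% and 3.31%.
CAG: 4.65% and 3.07%.
No shared base was given for 14.1% and 30.4%. Each stretch listed except G alone was more frequent in the circles with alternatives, in sets that were not matched for counts. No genome sequence was used here, so the sequence of the exons and introns below is not shown.

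Retained introns were the commonest difference. A retained intron is a stretch spliced out of one isoform and kept inside an exon block of another, and 7374 circles (60.5%) held at least 1. A skipped exon, present in one isoform and lying inside an intron of another, was found in 5638 circles (46.3%). A shifted edge, where overlapping exon blocks start or end at different positions, was found in 4445 (36.5%). Mixtures were frequent, and 4376 circles (35.9%) had more than 1 kind of difference. Circles with a retained intron alone numbered 4662 (38.3%), with a skipped exon alone 1955 (16.1%) and with a shifted edge alone 1186 (9.74%).

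By counts the retained intron weighed more. Circles with any retained intron held 70.7% of the counts, and those with a retained intron alone held 44.5%. Circles with a skipped exon alone held 9.86%. The 902 circles with all 3 kinds had a median of 16 counts, against 7 for a retained intron alone, 6 for a skipped exon alone and 6 for a shifted edge alone, and they held 13.3% of the counts.

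**Figure D2:**
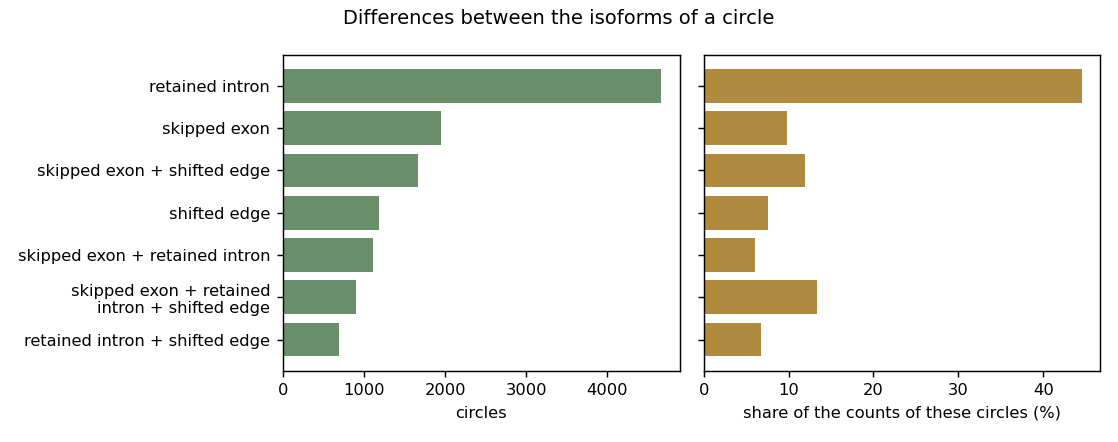
Horizontal bars give, for each combination of differences between the isoforms of a circle, the number of circles (left) and the share of all counts of circles with alternatives in percent (right), both from 0. A retained intron alone leads both panels, with 4662 circles and 44.5% of the counts.

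Skipped exons numbered 10243 distinct positions in 2084 genes. Their median size was 138 nt (quartiles 96 and 216 nt). Of them, 6359 were also internal exons of circles with 1 isoform, with a median of 127 nt against 124 nt for the 52562 internal exons not listed as skipped. The other 3884 were internal exons of no circle with 1 isoform, and their median was 190 nt. A length divisible by 3, which leaves the reading frame unchanged when an exon is lost, was found for 36.1% of the first set, against 38.4% of the exons not listed as skipped. Among all skipped exons it was 35.1%.

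Many skipped exons recurred. There were 2353 (23.0%) listed in more than 1 circle with alternatives and 299 listed in 5 or more. Circles of the same gene that overlap share these exons, so the listings are not independent. Of the skipped exons, 5531 (54.0%) had an edge that served as a back splice of a circle of the table, and 2127 (20.8%) had both edges so used. In circles with 1 isoform, 2300 (22.5%) of the skipped exons were included by some and skipped by others. A further 4059 were included and never skipped there, 2881 were skipped and never included, and 1003 were met in neither form. The exons that were skipped and never included were longer, with a median of 199 nt against 128 nt for those included and never skipped.

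Retained introns numbered 8222 in 2713 genes, with a median of 1298 nt (quartiles 684 and 2190 nt). Of these, 5182 (63.0%) were spliced out of at least 1 circle with 1 isoform. Their median was 1407 nt, against 2167 nt for 68139 introns of circles with 1 isoform that were never listed as retained. The remaining 3040 had a median of 1114 nt. Both forms were seen in circles with 1 isoform for 940 introns. Another 4242 were spliced and never kept there, 1030 were kept and never spliced, and 2010 were met in neither form.

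The meaning of the category depended on the first-listed isoform. In 714 circles that isoform was 1 unbroken block and another isoform left out a piece of it. Such a block may be 1 exon with a gap, or exons with the intron between them kept. The 714 circles held 8.88% of the counts, and 38.5% of their 1049 distinct gaps were spliced out of a circle with 1 isoform. In the 6660 circles with several blocks the share was 66.6% of 7349, and in 34.3% of those circles the first-listed isoform was the one that kept the intron.

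Shifted edges numbered 5380 in 1889 genes. No listed difference was below 11 nt. Shifts had a median of 336 nt, with 21.4% between 11 and 50 nt and 44.6% over 500 nt. The 2733 shifts at an exon start, where the 3' splice site lies, had a median of 185 nt. The 2647 at an exon end, where the 5' splice site lies, had a median of 477 nt. Shifts of 11 to 50 nt kept the frame in 32.1% of cases, and all shifts did so in 32.5%.

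The host genes were uneven. Of the 3322 hosts, 1233 had 1 such circle and 239 had 10 or more. DNAH14, which encodes an axonemal dynein heavy chain, led with 126 of its 315 circles (40.0%). BIRC6, a giant ubiquitin-conjugating enzyme that blocks apoptosis, had 70 of 455 (15.4%). RIF1, which protects broken DNA ends, had 59 of 172 (34.3%), and CEP192, a centrosome scaffold, had 58 of 273 (21.2%). USP34, a deubiquitinase, had 56 of 402 (13.9%). XPO1, the nuclear export receptor, had 44 of 132 (33.3%). CCDC18 had 35 of 81, the highest share of these at 43.2%.

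Among circles with the highest counts, ARHGAP5 came first. ARHGAP5 encodes a GTPase-activating protein, and its circle at chr14:32090502-32094386 (GRCh38.p14, plus strand) consists of 1 block of 3885 nt. It had 335 and 2163 counts in the control replicates and 5090 and 5779 in the knockdown replicates. Per 100000 counts this was 70.9 and 389 against 1800 and 1480, so both knockdown libraries lay above both controls, and the controls differed from each other by more than 5-fold. The second isoform, of 2697 nt, lacks 1188 nt inside the block (32092873 to 32094060). In circles with 1 isoform that gap was never spliced out. There 28 circles kept it, with 8649 counts, and 0 counts allows a share of up to 0.0347%. Here and below, circles that list both forms are left out of such counts, so these limits hold for circles with 1 isoform only. The log2 fold change of knockdown over control was 2.93 ± 0.67 (SE), and edgeR's quasi-likelihood test gave an adjusted p of 0.146. Without control replicate 1 it was 2.24 and without control replicate 2 it was 4.27. The size of the fold thus depended on which control was kept.

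ZMYM4, a zinc finger protein, had a 7-exon circle at chr1:35381259-35389082 (plus strand). Its counts were 3093 and 5666 in the controls against 1756 and 2682 in the knockdowns, or 655 and 1018 against 621 and 687 per 100000. The groups overlapped, and the log2 fold change was -0.37 ± 0.31 (SE, adjusted p = 0.558 with edgeR). The longer isoform, of 2735 nt against 1255 nt, keeps introns of 175 and 1305 nt. These introns were spliced in all 54 and 44 circles with 1 isoform that span them. The kept form had 0 of 4109 and 0 of 4031 counts there, which allows up to 0.0730% and 0.0744% in such circles. The introns were listed as alternatives in 3 and 2 circles of the gene, which these counts leave out.

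The same arrangement was found in several other circles of high count. PPP4R1, a regulatory subunit of protein phosphatase 4, had a 7-exon circle at chr18:9583117-9595153 (minus strand) with 1467 and 2431 counts in the controls against 590 and 760 in the knockdowns. Per 100000 counts the controls were 311 and 437 and the knockdowns 209 and 195, without overlap, and the log2 fold change was -0.92 ± 0.30 (SE, edgeR adjusted p = 0.266). Its long isoform keeps an intron of 1143 nt that 21 circles with 1 isoform spliced and none kept, over 429 counts, which allows up to 0.699%. CEP192 at chr18:12999421-13030608 (plus strand) kept another intron of 1143 nt, and 12 circles of the gene listed that intron as an alternative. All 56 circles with 1 isoform spliced it, over 1310 counts. The CEP192 circle had 244 and 263 counts per 100000 in the controls against 185 and 193 in the knockdowns, a log2 fold change of -0.48 ± 0.32 (SE, edgeR adjusted p = 0.470).

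The gap inside an unbroken block recurred in FAT1 and TNFRSF21. FAT1, a giant protocadherin, had a 3283-nt block at chr4:186706563-186709845 (minus strand) and an isoform without 1913 nt of it. All 14 circles with 1 isoform kept that piece, over 621 counts, which allows a spliced share of up to 0.483%. FAT1 counts per 100000 were 364 and 271 in the controls against 351 and 260 in the knockdowns, so the groups overlapped. TNFRSF21, a death receptor, had a 2658-nt block at chr6:47283938-47286595 (minus strand) and an isoform without 1511 nt. Its values were 334 and 188 in the controls against 393 and 322 in the knockdowns, which also overlapped. Without control replicate 1 and without control replicate 2 the log2 fold change was 0.34 and -0.52 for FAT1 and 1.09 and -0.16 for TNFRSF21.

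For BACH1, and for 1 exon of MAPK9, both forms were met elsewhere. BACH1, a transcriptional repressor of haem and antioxidant genes, had a 3-exon circle at chr21:29321221-29329693 (plus strand) whose first-listed isoform keeps 893 nt that the other, of 943 nt, splices out. In circles with 1 isoform, 8 kept it and 2 spliced it. Its values were 354 and 373 counts per 100000 in the controls against 303 and 258 in the knockdowns, with no overlap and a log2 fold change of -0.44 ± 0.32 (SE, edgeR adjusted p = 0.50). MAPK9, the stress kinase JNK2, had a circle at chr5:180261684-180280608 (minus strand) with 4 isoforms between 497 and 3297 nt. One of its exons, of 241 nt, was included by 9 and skipped by 7 circles with 1 isoform. Its listed exons of 625 and 2800 nt were included by none and skipped by 16 and 7, over 228 and 45 counts, which allows inclusion in up to 1.32% and 6.67%. The 1934-nt intron was met in neither form, and the 2559-nt shift was not looked for in circles with 1 isoform. The MAPK9 circle stood at 232 and 218 in the controls against 193 and 188 in the knockdowns (log2 fold change -0.31 ± 0.34, SE, edgeR adjusted p = 0.662).

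Circles in which only an exon was skipped had lower counts. BARD1, the partner of BRCA1 in DNA repair, had a 5-exon circle at chr2:214767482-214797117 (minus strand) whose short isoform, 460 nt against 1410 nt, lacks an exon of 950 nt. That exon was included in all 9 circles with 1 isoform that span it, over 361 counts, which allows skipping in up to 0.831%. The BARD1 circle had 44.2 and 172 counts per 100000 in the controls against 132 and 152 in the knockdowns, with both knockdown values between the control values. Its log2 fold change was -0.11 with control replicate 1 left out and 1.42 with control replicate 2 left out. MRPL22, a mitochondrial ribosomal protein, had an isoform with a further exon of 921 nt in its circle at chr5:154950821-154967237 (plus strand). It stood at 58.4 and 121 in the controls against 42.4 and 36.6 in the knockdowns, a log2 fold change of -1.18 ± 0.37 (SE, edgeR adjusted p = 0.244). KNTC1, a kinetochore protein of the spindle checkpoint, had a 21-exon circle at chr12:122594276-122624688 (plus strand) that could lose 4 neighbouring exons of 208, 90, 172 and 59 nt together. Each of these exons was skipped by 6 and included by 22 to 38 circles with 1 isoform. KNTC1 values were 65.8 and 57.9 in the controls against 81.0 and 66.3 in the knockdowns, without overlap but nearly touching.

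Circles that differed only by a shifted edge included CSNK1G3, CCSER2 and QSER1. In CSNK1G3, a casein kinase 1, the start of an exon at chr5:123545417-123557564 (plus strand) moved by 2879 nt. CSNK1G3 values were 67.1 and 217 counts per 100000 in the controls against 85.2 and 119 in the knockdowns. The exon end of the CCSER2 circle at chr10:84371014-84373815 (plus strand) moved by 763 nt, and its values were 66.3 and 178 against 124 and 130. In both circles the knockdown values lay between the control values, and the sign of the fold change turned with the control used: -0.91 without control replicate 1 and 0.35 without control replicate 2 for CSNK1G3, and -0.31 and 0.68 for CCSER2. The CCSER2 sign also turned with library-size scaling (-0.04). QSER1 at chr11:32935001-32978000 (plus strand) had an exon end moved by 933 nt and stood at 91.7 and 115 in the controls against 63.3 and 64.8 in the knockdowns (log2 fold change -0.73 ± 0.32, SE, edgeR adjusted p = 0.403).

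The circles with most isoforms had 82 to 153 counts. DPY19L1P2, a pseudogene, had 10 isoforms of 277 to 3791 nt at chr7:32812757-32820741 (plus strand) and 82 counts in all. It copies DPY19L1, so reads of the 2 genes may have been split and its isoforms are uncertain. UXS1, the enzyme that makes UDP-xylose, had 9 isoforms of 197 to 5730 nt at chr2:106158058-106166083 (minus strand) and 151 counts. TRMT61B, a mitochondrial tRNA methyltransferase, had 8 isoforms of 691 to 6174 nt at chr2:28850328-28865119 (minus strand) and 153 counts. TRMT61B stood at 3.39 and 6.65 counts per 100000 in the controls against 12.4 and 16.6 in the knockdowns, a log2 fold change of 1.53 ± 0.43 (SE, edgeR adjusted p = 0.205).

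The share of counts in circles with alternatives was compared between the groups first. Of the counts of eligible exon circles, it was 35.2% and 41.7% in control replicates 1 and 2 and 43.0% in both knockdown replicates. Controls averaged 38.4% ± 4.61 (SD, n = 2) and knockdowns 43.0% ± 0.0148 (SD, n = 2), which differ by 4.58 percentage points, and the exact two-sided permutation test gave p = 0.33, the smallest that 2 against 2 allows. The difference was smaller than the spread between the controls, 6.51 percentage points. It was 1.32 with control replicate 1 left out and 7.84 with control replicate 2 left out. At an equal depth of 282737 counts, 7196 and 7685 such circles would be seen in the controls against 7863 and 7930 in the knockdowns, a ratio of 1.06 (exact two-sided permutation p = 0.33). When 2 counts were required the ratio was 1.07 and the groups overlapped (exact two-sided permutation p = 1.00). Isoforms per circle, weighted by counts, were 2.43 and 2.43 in the controls against 2.45 and 2.46 in the knockdowns (exact two-sided permutation p = 0.33).

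Shares of the kinds of difference moved by about 1 percentage point and turned with 1 circle. Circles with a retained intron held 70.6% and 69.9% of the counts in the controls against 71.5% and 71.1% in the knockdowns. For a skipped exon the shares were 42.1% and 41.5% against 40.4% and 40.6%, and for a shifted edge 40.0% and 39.8% against 39.2% and 39.1%. The groups did not overlap in any of the 3 kinds (exact two-sided permutation p = 0.33 each). The differences of knockdown minus control were 1.05, -1.28 and -0.68 percentage points. Without the ARHGAP5 circle they were -0.28, 0.60 and 1.15, so each turned its sign. The groups then overlapped for the retained intron.

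**Figure D3:**
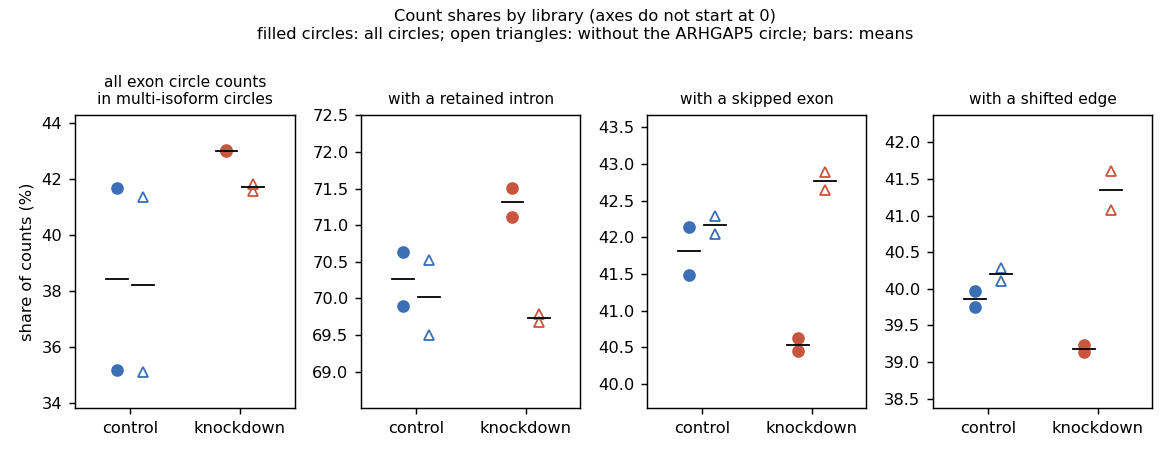
Points show, for each library, the share of exon circle counts in circles with alternative isoforms (left panel) and the share of the counts of such circles in those with a retained intron, a skipped exon or a shifted edge, all in percent on axes that do not start at 0. Filled circles are all circles and open triangles leave out the ARHGAP5 circle, with blue for controls, red for knockdowns and a bar for the mean of 2 libraries. Leaving out that circle turns the order of the groups in the skipped exon and shifted edge panels.

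Circles seen in 1 library give a view of each library by itself. Among circles with 2 counts that were seen in 1 library, those with alternatives were 2.55% and 2.91% for the controls and 3.16% and 3.75% for the knockdowns (exact two-sided permutation p = 0.33). Of the circles with alternatives seen in 1 library, 30.6% and 31.5% held a shifted edge in the controls against 34.9% and 34.3% in the knockdowns, a difference of 3.58 percentage points (exact two-sided permutation p = 0.33). A retained intron was held by 55.0% and 57.9% against 58.1% and 57.5%, and the groups overlapped. For a skipped exon the shares were 46.7% in both controls against 44.5% and 46.5%, a difference of -1.17 percentage points without overlap (exact two-sided permutation p = 0.33).

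Knockdown and control were then compared circle by circle, in a fit over all 21576 circles with at least 10 counts, of which 5112 had alternatives and 7067 further circles with alternatives stayed below that minimum. None of the 5112 passed an adjusted p of 0.05 with edgeR's quasi-likelihood test, and none of the 21576 did (0.0%). At an unadjusted p under 0.05 there were 659 higher in the knockdown (12.9%) and 264 lower (5.16%), where all circles tested gave 9.42% higher and 4.00% lower, 13.4% in all. Calls appeared when a control was left out: 1186 of 4383 circles with alternatives (27.1%) passed without control replicate 1, beside 28.1% of all circles, and 1457 of 3880 (37.6%) without control replicate 2, beside 43.2%. In those fits the control group is left with 1 library and is taken to vary like the knockdown group. DESeq2 on all libraries called 433 of the 3308 with an adjusted p (13.1%), beside 10.5% of all circles. Among circles with alternatives and at least 40 counts, both knockdowns lay above both controls in 614 of 1901 (32.3%) and below in 525 (27.6%), beside 29.7% and 28.9% of all circles with that many counts. The median log2 fold change was -0.07 for circles with alternatives, -0.28 for exon circles with 1 isoform and -0.39 for all circles tested. At 100 counts or more it was -0.03 for circles with alternatives and -0.05 for those with 1 isoform. By kind it was -0.06 for a skipped exon alone, -0.06 for a retained intron alone and -0.18 for a shifted edge alone.

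The circles with the smallest p in each direction are given next. PICALM, which links clathrin to membranes, had a 7-exon circle at chr11:86007542-86031611 (minus strand) with 2 and 4 counts in the controls against 102 and 163 in the knockdowns. Per 100000 counts this was 0.423 and 0.719 against 36.1 and 41.7, and the log2 fold change was 5.99 ± 0.48 (SE, edgeR adjusted p = 0.0761). One isoform adds an exon of 872 nt that 36 circles with 1 isoform skipped and none included, over 3870 counts, which allows inclusion in up to 0.0775%. TAF2, a subunit of the transcription factor TFIID, had an 8-exon circle at chr8:119788338-119797846 (minus strand) with 2, 4, 77 and 120 counts in the same order, and a log2 fold change of 5.57 ± 0.48 (SE, edgeR adjusted p = 0.0761). Its long isoform keeps an intron of 2080 nt. FANCB, a component of the Fanconi anaemia core complex, had an 8-exon circle at chrX:14843660-14865580 (minus strand) with 20, 31, 222 and 338 counts and an exon end moved by 2308 nt (log2 fold change 4.04 ± 0.38, SE, edgeR adjusted p = 0.0761). In all 3 circles both knockdown libraries were far above both controls. The circles were chosen by p from these same counts, so that separation adds no support. With 2 and 4 counts in the controls, PICALM and TAF2 also met the minimum count of the fit only through the knockdowns. Over the 14 settings run, the reported one included, the log2 fold change lay between 5.84 and 6.20 for PICALM. It lay between 5.41 and 5.76 for TAF2 and between 3.895 and 4.20 for FANCB. Each circle passed the threshold in some of these settings and not in others, the reported one among the latter.

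Among circles with lower values in the knockdown the differences were smaller. RAB12, a GTPase of the endosome and lysosome, had a 5-exon circle with 3 isoforms at chr18:8624938-8638416 (plus strand) and 338 and 755 counts in the controls against 70 and 108 in the knockdowns (71.5 and 136 against 24.8 and 27.7 per 100000). Its log2 fold change was -1.97 ± 0.36 (SE, edgeR adjusted p = 0.104). HNRNPC, an abundant nuclear RNA-binding protein that limits the use of cryptic exons, had a 3-exon circle at chr14:21230319-21234229 (minus strand) with 38 and 108 counts against 6 and 8. The longer form keeps 591 nt. Its log2 fold change was -2.68 ± 0.50 (SE, edgeR adjusted p = 0.105). UBE3C, a ubiquitin ligase, had an 8-exon circle at chr7:157201721-157231327 (plus strand) with 80 and 94 counts against 10 and 16 and a short isoform without exons of 158, 233 and 88 nt. For UBE3C the log2 fold change was -2.19 ± 0.42 (SE, edgeR adjusted p = 0.110). In these 3 circles both controls lay above both knockdowns, but they were chosen by p from these same counts, so this adds no support.

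The named circles show how far the result depends on the controls. With all libraries, edgeR called none of the 28 and DESeq2 called 12. In 7 of the 28 (ATM, BARD1, CCSER2, CSNK1G3, FAT1, KNTC1 and TNFRSF21) the sign differed between leaving out one control and the other. PICALM, TAF2, FANCB, TASOR, XPO1, ARHGAP5, TRMT61B and UXS1 were higher in both cases. HNRNPC, RAB12, UBE3C, PPP4R1, MRPL22, NSD1, QSER1, ZMYM4, BACH1, CEP192, MAPK9, DHX9 and DPY19L1P2 were lower in both.

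**Figure D4:**
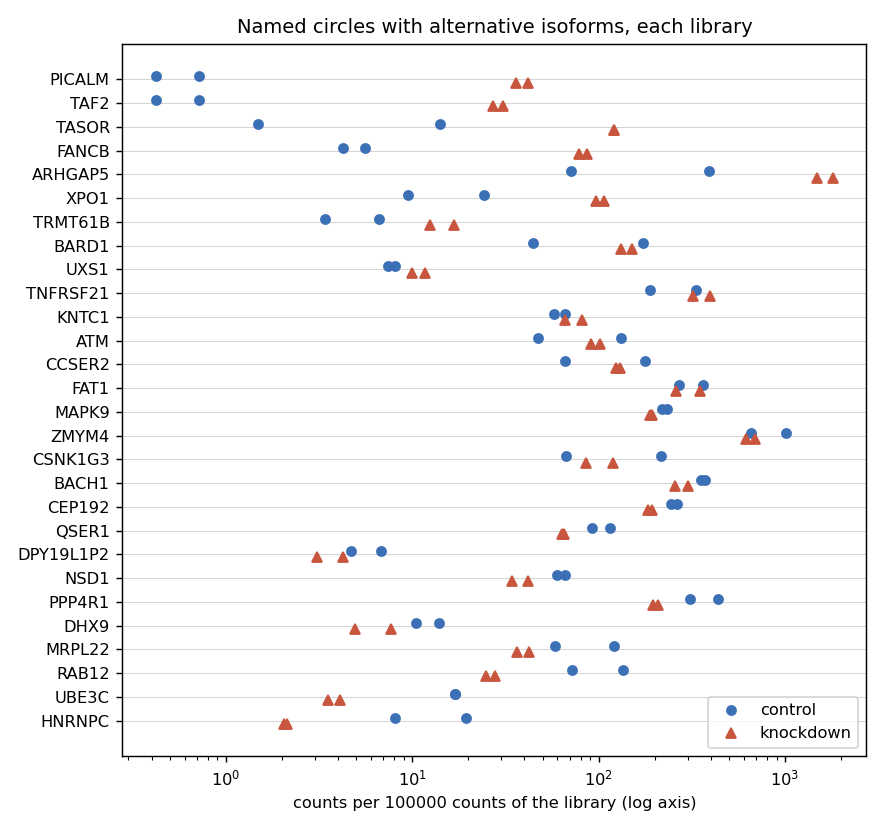
Each row is a named circle with alternative isoforms, ordered by fold change, and the log axis gives counts per 100000 counts of the library. Blue circles are the 2 control libraries and red triangles the 2 knockdown libraries. PICALM and TAF2 at the top lay at 0.423 and 0.719 in the controls, while BARD1, CSNK1G3 and CCSER2 have both knockdown values between the control values.

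Gene lists were read by counts, since circles of 1 gene overlap and are not independent. The lists were chosen with earlier results of these data known, so a higher share in a list is no independent support. Each list can also be set beside all tested circles with alternatives. Of these, 12.9% were higher and 5.16% lower at an unadjusted p under 0.05 with edgeR. Of 22 widely studied host genes of circular RNA, 14 had a circle with alternatives, 88 circles in all. Of the 54 tested, none passed the adjusted threshold, and 30 were higher (55.6%) and 2 lower (3.70%) at an unadjusted p under 0.05 with edgeR, beside 9.42% and 4.00% of all circles tested, and the median log2 fold change was 2.20 (DESeq2 called 24 of 46, all higher, beside 10.5% of all circles). XPO1 gave 36 of these 54 and 26 of the 30. Without XPO1 and ARHGAP5 the median of the other 16 circles was -0.41, with 3 higher and 2 lower. The XPO1 circle of highest count, at chr2:61482957-61490776 (minus strand), had 45 and 135 counts in the controls against 275 and 415 in the knockdowns. Per 100000 counts this was 9.53 and 24.3 against 97.3 and 106, a log2 fold change of 2.62 ± 0.43 (SE, edgeR adjusted p = 0.0911). Its isoforms differ by a 639-nt shift of an exon start that 6 circles of the gene list.

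Genes of the DNA damage response had 262 circles with alternatives in 25 of 30 genes. Of the 131 tested, 22 were higher (16.8%) and 1 lower (0.763%) at an unadjusted p under 0.05, beside 9.42% and 4.00% of all circles tested, none passed the adjusted threshold with edgeR, and the median log2 fold change was 0.36 (DESeq2 called 17 of 86, or 19.8%, all higher). All tested circles with alternatives gave 12.9% higher and 5.16% lower. FANCB gave 4 of the 22, from 5 tested, and ATM and FANCL gave 3 each, from 16 and 5. RIF1 gave 37 of the 131 tested, with 2 of the 22 and the 1 that was lower. ATM, the kinase that signals double-strand breaks, had its highest circle at chr11:108315823-108335961 (plus strand), with 47.0 and 131 counts per 100000 in the controls against 102 and 91.2 in the knockdowns. The ATM values overlapped, and the log2 fold change was -0.28 with control replicate 1 left out and 0.77 with control replicate 2 left out. That 16-exon circle had a second isoform of 870 nt that lacked 8 exons and had 6 edges moved by 23 to 139 nt.

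Splicing factors had 111 circles with alternatives, which came from 26 of 36 genes, and of the 41 tested 1 was higher (2.44%) and 5 lower (12.2%) at an unadjusted p under 0.05, beside 9.42% and 4.00% of all circles tested, with none past the adjusted threshold with edgeR and a median log2 fold change of -1.02 (DESeq2 called 2 of 21, or 9.52%, both lower). DHX9, an RNA helicase known to act on inverted repeats near back splices, had an 8-exon circle at chr1:182872337-182880608 (plus strand). The DHX9 circle stood at 14 and 10.4 counts per 100000 in the controls against 4.95 and 7.68 in the knockdowns, without overlap (log2 fold change -1.01 ± 0.49, SE, edgeR adjusted p = 0.430). One isoform keeps an intron of 2360 nt that 52 circles with 1 isoform spliced and none kept, over 210 counts, which allows up to 1.43%.

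Chromatin regulators had 197 circles with alternatives in 27 of 36 genes. Of the 97 tested, 7 were higher (7.22%) and 4 lower (4.12%) at an unadjusted p under 0.05, beside 9.42% and 4.00% of all circles tested, none passed the adjusted threshold with edgeR, and the median log2 fold change was -0.05 (DESeq2 called 2 of 59, or 3.39%, both higher). NSD1, a histone H3 methyltransferase, had a 2560-nt block at chr5:177209636-177212195 (plus strand) with an isoform lacking 1079 nt that all 26 circles with 1 isoform kept. NSD1 stood at 60.1 and 65.8 counts per 100000 in the controls against 41.7 and 34.3 in the knockdowns (log2 fold change -0.79 ± 0.34, SE, edgeR adjusted p = 0.394). TASOR, a subunit of the HUSH silencing complex, had 7 and 78 counts in the controls against 341 and 475 in the knockdowns in a 10-exon circle at chr3:56660731-56673725 (minus strand) with an exon start moved by 683 nt. Its log2 fold change was 4.05 ± 0.82 (SE, edgeR adjusted p = 0.118), and without control replicate 1 and without control replicate 2 it was 3.28 and 6.06. TASOR gave 25 of the 97 tested, with 3 of the 7 higher and 1 of the 4 lower.

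Since the table has no counts per isoform, the use of the skipped exons and retained introns was measured in other circles. For each one, counts of circles with 1 isoform from the same gene that span it were summed by whether they kept or lost it, and the share that kept it was compared between groups. These are different circles with different back splices. A shift can therefore come from another choice of circle as well as from another choice of exon, and these cannot be told apart. Circles with alternatives, 55.5% of those with 100 counts or more, are left out, among them each circle that lists both forms. Counted as well, by their first-listed isoform, they gave 32 skipped exons whose use differed, against 0 without them. There were 373 skipped exons in 170 genes and 44 retained introns in 40 genes with at least 10 informative counts in every library and at least 10 of each form.

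Most of these exons were kept in most counts. The median share with the exon was 88.6% and 87.9% in the controls against 89.8% and 89.5% in the knockdowns. It was 90% or more for 177 exons, 10% or less for 54 and between these for 142. For the introns the median share that kept it was 13.2% and 18.4% in the controls against 18.8% and 19% in the knockdowns.

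No exon or intron passed an adjusted p of 0.05 with edgeR's quasi-likelihood test (0.0% of each). At an unadjusted p under 0.05 there were 59 exons (15.8%), 41 kept more and 18 kept less in the knockdown, and 1 intron (2.27%). Both knockdowns lay above both controls for 100 exons (26.8%) and below for 75 (20.1%). Without control replicate 2 the balance of exons turned, with 34 of 236 at that p, 11 kept more and 23 kept less. In that setting 23 introns could be tested and 2 were called.

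DNAH14 held the exons that were skipped in most circles. An exon of 370 nt at chr1:225080379-225080748 (plus strand) was an alternative in 55 circles, one of 98 nt at chr1:225043886-225043983 in 48, and one of 345 nt at chr1:225051451-225051795 in 47. In circles with 1 isoform the first was kept by 86.8% and 66.1% of the control counts and 83.5% and 82.9% of the knockdown counts. Its 95% Wilson intervals were 72.7 to 94.2%, 53.4 to 76.9%, 73.9 to 90.1% and 75.3 to 88.6%, which cover counting error only. The 98-nt exon stood at 83.3% and 77.8% against 91.5% and 92.1%, from 12, 27, 82 and 152 counts (edgeR adjusted p = 0.402). The 345-nt exon was kept by 84.2% and 64.5% against 74.0% and 86.4%, and the groups overlapped.

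The exons with the smallest p in each direction were named after their values were seen. A PICALM exon of 137 nt at chr11:86000643-86000779 was kept by 99.4% of the counts in both controls (350 of 352 and 1429 of 1438) and by all 931 and 1350 counts in the knockdowns, which allow skipping in up to 0.322% and 0.222% (edgeR adjusted p = 0.112). A USP34 exon of 76 nt at chr2:61236161-61236236 was kept by 90.4% and 93.5% in the controls against 99.1% and 100% in the knockdowns (edgeR adjusted p = 0.232). An SLC41A2 exon of 116 nt at chr12:104914973-104915088, in a gene for a magnesium transporter, was kept by 0 of 25 and 0 of 72 counts in the controls, which allow up to 12% and 4.17%. In the knockdowns it was kept by 7.58% and 16.5%. In the other direction the smallest p belonged to another PICALM exon, of 126 nt at chr11:86023416-86023541, which was kept by 0.990% and 0.445% in the controls (3 of 303 and 6 of 1349 counts). In the knockdowns it was kept by 0 of 891 counts, which allows up to 0.337%, and by 1 of 1278 (edgeR adjusted p = 0.232). A BIRC6 exon of 134 nt at chr2:32448795-32448928 was kept by 100% and 99.4% in the controls against 95.5% and 94.5% in the knockdowns. A CCDC7 exon of 167 nt at chr10:32471064-32471230 was kept by 20% and 17.9% against 3.88% and 3.42%, where the controls rest on 10 and 28 counts. The groups did not overlap for any of these 6 exons, but they were chosen by p from these same shares, so this adds no support. All but the CCDC7 exon also met the minimum of 10 counts of each form wholly or mostly through 1 group. The 137-nt PICALM exon was skipped by 2 and 9 counts in the controls and by none in the knockdowns. The SLC41A2 exon was kept by 5 and 14 counts in the knockdowns and by none in the controls. The USP34 exon was skipped by 9 and 9 counts in the controls against 1 and 0 in the knockdowns. The 126-nt PICALM exon was kept by 3 and 6 counts against 0 and 1, and the BIRC6 exon was skipped by 0 and 1 against 4 and 6.

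Among introns, one of 2915 nt in RIF1 (chr2:151462939-151465853) was listed in 27 circles, more than any other. It was kept by 47.1% and 68.8% of the control counts and 75.0% and 74.1% of the knockdown counts, from 17 to 54 counts per library (edgeR adjusted p = 0.896). A ZNF131 intron of 102 nt at chr5:43161607-43161708 was kept by 4.62% and 22.9% in the controls against 37.6% and 39.1% in the knockdowns, with Wilson intervals of 2.36 to 8.86%, 18.7 to 27.8%, 30.4 to 45.4% and 33.1 to 45.4% (edgeR adjusted p = 0.750). The intervals of the controls did not overlap each other. An EML4 intron of 1565 nt at chr2:42284704-42286268 was kept by 10.6% and 20.8% in the controls against by 0 of 19 and 0 of 24 counts in the knockdowns, which allow up to 15.8% and 12.5%. That leaves the EML4 difference within counting error for control replicate 1. The EML4 intron was kept by 5 and 16 counts in the controls, so it met the minimum of 10 kept counts only through the controls. A TAF1 intron of 734 nt at chrX:71423240-71423973, in a gene for the largest subunit of TFIID, was kept by 3.85% and 12.5% against 50.0% and 20.8%, where the libraries rest on 10 to 26 counts. A CCDC18 intron of 991 nt at chr1:93216747-93217737 was listed in 17 circles and kept by 10.8% and 0.725% against 4.08% and 1.08%. An intron of 1666 nt in RGPD5 at chr2:109836338-109838003 was listed in 15 and kept by 86.2% and 95.2% against 100% and 95.2%. RGPD5 has near-identical copies, so its reads are uncertain. CCDC18 and RGPD5 introns had too few counts of one form for the test. The TAF1 intron met the minimum mostly through the knockdowns, with 5 kept counts in each against 1 and 2 in the controls. The ZNF131, EML4 and TAF1 introns were chosen by p from these same shares, so a lack of overlap adds no support.

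**Figure D5:**
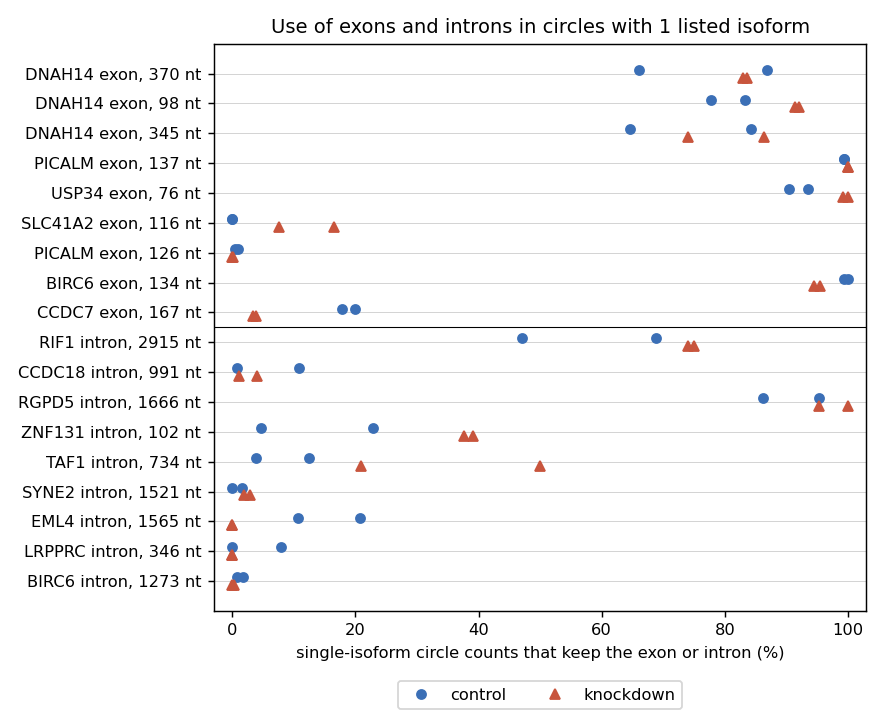
Rows are exons (above the line) and introns (below it) listed as alternatives, and the axis gives the share of counts of circles with 1 isoform that keep them, in percent from 0 to 100. Blue circles are controls and red triangles knockdowns. In the DNAH14 rows of 370 and 345 nt the controls lie further apart than the group means, and the CCDC7 row shows 20% and 17.9% against 3.88% and 3.42%.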

How the data were processed

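Circular RNA was measured in 4 nanopore libraries of radiation-resistant MDA-MB-468 cells, grouped by the sample titles. The deposited counts are whole raw counts per back splice and library, called with CIRI-long per the file headers and columns. GRCh38.p14 and DESeq2 are named in the submitters' processing notes, and other steps are not given in the sources used here. Coordinates are as deposited. The deposited table of scaled values was not used. Copies carry no molecular identifiers, so intervals and floors cover counting error only. A count of 0 was taken to allow 3 counts.

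Exon blocks of the isoforms of a row were compared by position, with code tested on made-up blocks. Counts were tested with edgeR's quasi-likelihood test (edgeR 4.0.16, R 4.3.3), TMM normalization and Benjamini-Hochberg adjustment over all circles with at least 10 counts, at a threshold of 0.05. Standard errors were derived from the F statistic. Use of exons and introns was tested with the same tool, with library, form and form by group as terms. That test was added after the table had been seen, since the planned comparison of isoforms needs counts per isoform. The edgeR steps were tested on simulated counts. Values per library were compared with exact permutation tests. Members and lists were chosen with earlier results of these data known. Named circles were the 8 of highest count, the 3 of smallest p in each direction, the 3 of highest count with only 1 kind of difference, the 3 with most isoforms, the 2 of highest count per gene list, and the 3 skipped exons in most circles. Circles named by several parts are described once. Introns, and exons chosen by p, were named after their values were seen. Some marker genes are not reported here.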

Additional observations from a re-analysis of the deposited data

How the results depend on the processing

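Depth limited which circles could be described: 7067 of 12179 stayed below 10 counts, and with at least 10 counts the circles with a skipped exon, a retained intron and a shifted edge numbered 2395, 3292 and 2031. Calls among circles with alternatives were 0 and became 178 without the count filter (1.46%, beside 0.248% of all circles in that fit), 481 where 2 libraries had to reach 5 counts (13.1% beside 12%), 277 at a minimum of 40 (14.6% beside 12.5%), 227 when exon circles with 1 gene were fitted alone (4.44% beside 3.07%), 528 with the replicate block (10.3% beside 7.66%) and 433 with DESeq2 1.42.0 (13.1% beside 10.5%). Leaving out a replicate gave 0 to 1457 calls, and 0 without either knockdown replicate. A group left with 1 library is taken to vary like the other group, so the spread then rests on the 2 knockdowns or on the 2 controls. The cause of the other changes was not tested. The labels do not say whether same-numbered replicates share a culture or a batch. Same-numbered deviations correlated at 0.0706 over 4944 circles, which cannot decide this with 2 libraries per group. The median log2 fold change of circles with alternatives lay between -0.15 and 0.21 when a replicate was left out, the latter without control replicate 2. Its sign turned against -0.07 there and in 3 further settings: 0.02 without control replicate 1, 0.07 where 2 libraries had to reach 5 counts and 0.03 at a minimum of 40. The difference in the share of counts lay between 1.32 and 7.84 percentage points when a replicate was left out, and that for a retained intron between 0.68 and 1.41. Without the ARHGAP5 circle, an alternative chosen after seeing the data, the differences for a skipped exon, a retained intron and a shifted edge turned to 0.60, -0.28 and 1.15 percentage points. Counting circles with alternatives by their first-listed isoform gave 32 skipped exons whose use differed, against 0. For retained introns, leaving out a replicate gave 0 to 2. Another 87 recomputed values of the main comparisons kept their direction, stayed within 1.5 times for counts, or were 0 calls that stayed at 0. Settings that ignored differences of 10 nt or less are among the 87. They could change little, since no listed difference was below 11 nt. Among named circles, 257 recomputed fold changes kept both, 96 newly passed the threshold and 11 turned sign without passing.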

Other observations

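Among named circles of the gene lists, some with the smallest p were not described above and were picked after their values were seen. A BRCA2 circle at chr13:32336265-32346896 (plus strand) with 3 exons had 81 and 50 counts in the knockdowns against 1 in each control, and its isoforms of 5098 and 1889 nt differ by a retained intron (edgeR adjusted p = 0.0761). An EZH2 circle at chr7:148817877-148847305 (minus strand) had 11 and 41 counts in the controls and 2 in each knockdown (log2 fold change -2.92 ± 0.75, SE, edgeR adjusted p = 0.173). An NSD2 circle at chr4:1900626-1904378 (plus strand) had 40.6 and 33.8 counts per 100000 in the controls against 18.4 and 18.7 in the knockdowns (log2 fold change -1.08 ± 0.39, SE, edgeR adjusted p = 0.316). A second HNRNPC circle, at chr14:21230319-21263336, had 15 and 42 counts in the controls against 1 and 2 in the knockdowns and shares the lower end of the HNRNPC circle described above (edgeR adjusted p = 0.117).

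Of 1562 human miRNA hairpins in the RefSeq table, 1 lay inside a listed difference, a retained intron. Rows that name a miRNA gene beside the host were left out by the rule on 1 gene, which lowers that count.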
